A study of Lobosphaera incisa with 32 samples.

Results

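The genes described here are 5 subunits of the class III phosphatidylinositol 3-kinase (PI3-kinase) complex of *Lobosphaera incisa*, a green microalga: *ATG6* (g1861), *ATG14* (g5843), a UVRAG/ATG14-like gene (g6478), *VPS15* (g14916) and *VPS34* (g8565). They were chosen by gene ID from the study's list of putative autophagy-related genes, not by a rule on their expression, though earlier results of these data were known. The 5 genes are among 16722 quantified and leave out AMRA1, which the study places with the same complex. The tables give gene IDs without product names, so the names rest on the study's annotation and could not be checked against the data. Each of the 5 genes is represented by 1 transcript, which carries 100% of its gene's expression in every condition, and 85.0% of all genes likewise have 1 transcript. The transcripts are 1824 (*ATG6*), 2538 (*ATG14*), 3165 (*UVRAG/ATG14-like*), 5350 (*VPS15*) and 2961 (*VPS34*) bases long.

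Strain SAG 2468 was grown axenically in modified BG-11 medium with CO2-enriched air. N-deprived cells were collected after 12 h under high light of 150 µmol photons per square metre per second (Nst12hHL), after 72 h under normal light of 75 µmol photons (Nst72hNL) and after 72 h under high light (Nst72hHL), and were set against logarithmically growing nutrient-replete cells at 0 h under normal light (Control). The 32 samples comprise 8 per condition, from 2 biological replicates run as 4 technical replicates each, and the tables used here pool them into 1 value per condition. The only replete sample is the one at 0 h, and the cells were centrifuged, washed and resuspended at the start of deprivation, so that N, time and handling cannot be told apart, and light changes as well in both comparisons of high-light cells with Control.

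VPS34 is a lipid kinase that turns phosphatidylinositol into phosphatidylinositol 3-phosphate, a membrane lipid that marks sites of autophagosome formation and endosomes. In yeast and animals it works in a pair of related complexes. VPS15, a protein with a kinase-like domain that anchors and regulates VPS34, and ATG6 (VPS30 in yeast, Beclin 1 in animals) belong to both. ATG14 is the subunit that directs the complex to autophagosome formation, and UVRAG, or VPS38 in yeast, takes its place in the complex that serves endosomal and vacuolar sorting. The annotation of g6478 names both UVRAG and ATG14, so the type of subunit it encodes is not settled by its name.

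The expected counts, that is, the fragments that RSEM assigned to each gene, add up to between 148630272 (Control) and 329774484 (Nst72hNL) per condition. The 5 genes had from 3566 to 20472 fragments each in a condition. Levels are given as FPKM, fragments scaled to transcript length in kilobases and to the mapped total, with the 95% interval deposited for them, whose half-width was 1.37 to 3.28% of the value for these genes. The intervals cover counting and the assignment of reads. The pooled values carry no spread between cultures, so no test between conditions was computed from them. The study's own tests over its replicates accompany the tables and were not used here, so the differences below are given without a test, which does not mean that none exists.

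In the replete culture the catalytic subunit gene was the most abundant of the 5, and after 72 h without N it ranked behind *ATG14* and *ATG6*. In Control the order was *VPS34*, *ATG6*, *ATG14*, *UVRAG/ATG14-like* and *VPS15*. At 12 h *ATG6* stood first, ahead of *VPS34*, and at 72 h under either light the order was *ATG14*, *ATG6*, *VPS34*, *UVRAG/ATG14-like* and *VPS15*. In every condition the intervals of all 4 pairs of neighbours in the order were separate. The same order was found in each condition with the mean normalised counts per library that the authors deposited, divided by transcript length, which weight the libraries differently from the pooled FPKM.

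**Figure D1:**
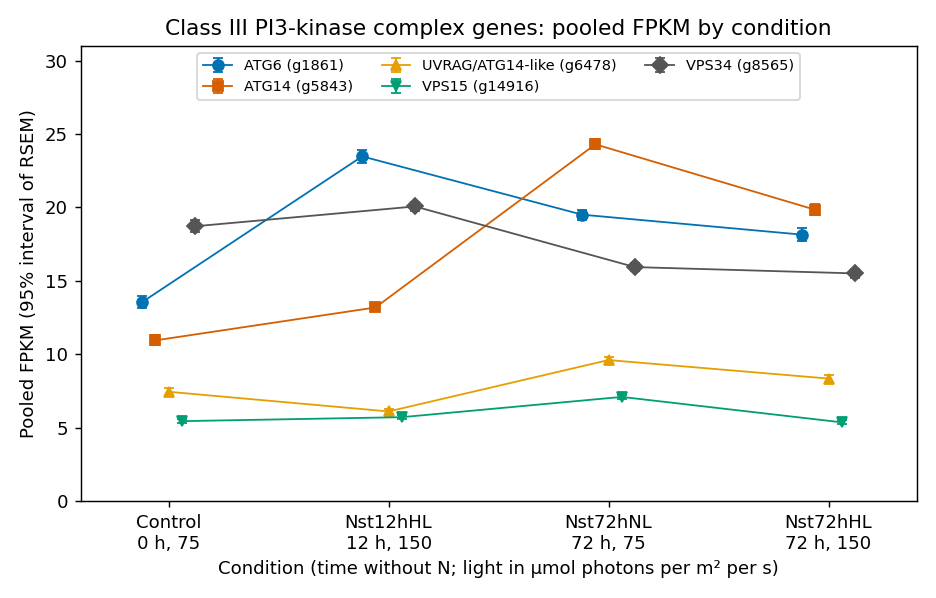
Pooled FPKM (vertical axis) of the 5 genes in the 4 conditions (horizontal axis, with time without N and light), 1 line per gene, the bars being the 95% intervals of RSEM. *ATG6* was highest at 12 h with 23.5 FPKM, *ATG14* in Nst72hNL with 24.3 FPKM, and *VPS34* had its lowest FPKM in the 72 h conditions, 15.9 in Nst72hNL (where TPM put it slightly above Control) and 15.5 in Nst72hHL.

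*VPS34*, the catalytic subunit gene, had 18.7 FPKM (95% interval 18.3 to 19.1) in Control, 20.1 (19.8 to 20.4) in Nst12hHL, 15.9 (15.7 to 16.2) in Nst72hNL and 15.5 (15.2 to 15.8) in Nst72hHL. Both 72 h values were below Control in FPKM, though by TPM the one in Nst72hNL was slightly above it, and the intervals of the 2 lights at 72 h overlapped. *VPS15*, its partner in the core of the complex, had 5.45 (5.29 to 5.61), 5.72 (5.60 to 5.84), 7.10 (6.97 to 7.22) and 5.37 (5.24 to 5.50) FPKM in the same order of conditions. Only the normal-light value at 72 h stood apart from its neighbour in level. Among the other 3 conditions the intervals of neighbours overlapped, while those of Nst12hHL and Nst72hHL were separate. Over the 4 conditions the highest value was 1.29 times the lowest for *VPS34* and 1.32 times for *VPS15*, against a median of 2.01 over the 14204 genes with at least 1 FPKM in some condition. The span of these core genes on the log2(FPKM + 1) scale was above that of 10.7% (*VPS34*) and 10.4% (*VPS15*) of those genes. With other scalings, chosen after seeing the data, the span of *VPS34* was above that of 2.46% (median-of-ratios) and 7.21% (TPM) of genes, and that of *VPS15* above 22.4% (median-of-ratios) and 24.3% (TPM), where its highest value was 1.49 and 1.58 times its lowest.

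*ATG6*, the subunit shared by both complexes, had 13.6 FPKM (13.1 to 14.0) in Control, 23.5 (23.1 to 23.9) in Nst12hHL, 19.5 (19.1 to 19.9) in Nst72hNL and 18.2 (17.7 to 18.6) in Nst72hHL. All N-deprived values were above Control, with the highest at the earliest time. *ATG14* had 10.95 (10.6 to 11.3), 13.2 (12.9 to 13.5), 24.3 (23.98 to 24.6) and 19.8 (19.5 to 20.2) FPKM in the same order. Its level at 12 h was 1.205 times that in Control, with separate intervals, and that in Nst72hHL was 1.504 times the 12 h level. The highest value, in Nst72hNL, differs from the 12 h sample in light as well as in time. The *UVRAG/ATG14-like* gene had 7.45 (7.21 to 7.70), 6.11 (5.95 to 6.27), 9.61 (9.42 to 9.79) and 8.35 (8.15 to 8.58) FPKM. It was the only one of the 5 with its lowest FPKM at 12 h, where 16.8% of those 14204 genes had theirs. *VPS15* was also lowest there with median-of-ratios scaling. The highest value was 2.22 times the lowest for *ATG14*, 1.73 times for *ATG6* and 1.57 times for *UVRAG/ATG14-like*, and only the span of *ATG14* exceeded the median gene, lying above 59.5% of genes on the log2(FPKM + 1) scale. With median-of-ratios scaling, also chosen after seeing the data, these were 2.32, 1.51 and 1.89 times, so *ATG6* and *UVRAG/ATG14-like* changed places. By TPM they were 2.69, 1.98 and 1.67 times. Of the 5 genes, 3 had their highest FPKM in Nst72hNL (*ATG14*, *UVRAG/ATG14-like* and *VPS15*), where 21.5% of those 14204 genes did, and 2 in Nst12hHL (*ATG6* and *VPS34*, though *VPS34* was highest in Control with median-of-ratios scaling), where 41.0% of them did.

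For comparisons between conditions, log2 ratios were taken after adding 1 FPKM and set beside the same ratio of all genes that reached 1 FPKM in either condition of a comparison. A gene was counted as past the fold when its log2 ratio was at least 1 or at most -1. The median log2 ratio of all genes to Control was 0.20 in Nst12hHL, -0.04 in Nst72hNL and -0.07 in Nst72hHL. It was 0.39, 0.22 and 0.12 with TPM, and 0.02, 0.02 and -0.02 with median-of-ratios scaling, so differences are also given less the median of all genes. On that relative scale the 5 genes kept their side of the median in all 8 alternative settings, in each of the 5 comparisons. TPM, counts over their total and median-of-ratios scaling move a gene and the median largely together. For these settings the outcome was thus nearly fixed in advance and says little about how firm each side is.

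In Nst72hNL *ATG14* was the 1 of the 5 genes past the fold, and it was higher than in Control. Of all genes 9.93% were past the fold upwards and 14.1% downwards in this comparison. With 24.3 FPKM in Nst72hNL and 10.95 FPKM in Control, *ATG14* had a ratio of 2.22 (2.12 to 2.32 from the bounds of both intervals). Its log2 ratio was 1.08, which is 1.12 above the median of all genes and higher than that of 91.1% of genes. *ATG6* had a ratio of 1.44 (1.37 to 1.51), or 0.54 above the median in log2 units. *UVRAG/ATG14-like* and *VPS15* had ratios of 1.29 (1.22 to 1.36) and 1.30 (1.24 to 1.36), both 0.37 above the median. *VPS34* was the 1 gene below, with a ratio of 0.851 (0.821 to 0.885) and a log2 ratio 0.18 under the median of all genes, in the middle of the distribution at percentile 40.1. By TPM the *VPS34* value in Nst72hNL was slightly above Control, with a log2 ratio of 0.05, while the median gene had 0.22. The median log2 ratio of the 5 genes was 0.33 and that of all genes -0.04. At a fold of 1.5 *ATG14* was still the only one of the 5 past it, against 19.2% of all genes upwards and 24.4% downwards.

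In Nst72hHL the order of the 5 ratios to Control was much the same, with smaller values, and 0 of the 5 genes were past the fold, against 10.2% of all genes upwards and 13.5% downwards. *ATG14* had 19.8 FPKM in Nst72hHL and 10.95 FPKM in Control, a ratio of 1.81 (1.73 to 1.90), and lay 0.87 above the median of all genes in log2 units, higher than 86.4% of genes. With TPM in place of FPKM its log2 ratio was 1.02, past the fold. At a fold of 1.5 it was the only one of the 5 past it, against 18.7% of all genes upwards and 24.2% downwards. *ATG6* had a ratio of 1.34 (1.27 to 1.41) and *UVRAG/ATG14-like* one of 1.12 (1.06 to 1.19). In FPKM *VPS15* did not differ from Control beyond its interval, with a ratio of 0.985 (0.932 to 1.04), and it was above Control by TPM (log2 ratio 0.17) and by median-of-ratios scaling (0.03). *VPS34* had a ratio of 0.829 (0.796 to 0.864), 0.18 under the median of all genes in log2 units. Both 72 h comparisons use the same Control libraries, so their values stand side by side and are not independent.

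The order differed in Nst12hHL, where *ATG6* was furthest above Control. *ATG6* had 23.5 FPKM in Nst12hHL and 13.6 FPKM in Control, a ratio of 1.73 (1.65 to 1.82), 0.55 above the median of all genes in log2 units and higher than 77.2% of genes. None of the 5 genes was past the fold of 2 in either direction (0 of 5, against 22.7% of all genes). At a fold of 1.5, *ATG6* was past it and the other 4 were not, against 29.0% of all genes upwards and 11.0% downwards. *ATG14* had a ratio of 1.205 (1.145 to 1.27), only 0.05 above the median gene. *VPS15* with 1.05 (0.997 to 1.103) and *VPS34* with 1.07 (1.03 to 1.11) were just above Control in FPKM and under it with median-of-ratios scaling (log2 ratios of -0.11 and -0.09). Both lay below the median gene, by 0.14 and 0.11 in log2 units. *UVRAG/ATG14-like* had 6.11 FPKM in Nst12hHL and 7.45 FPKM in Control, a ratio of 0.820 (0.773 to 0.870), 0.45 under the median gene in log2 units, at percentile 22.8 of all genes.

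**Figure D2:**
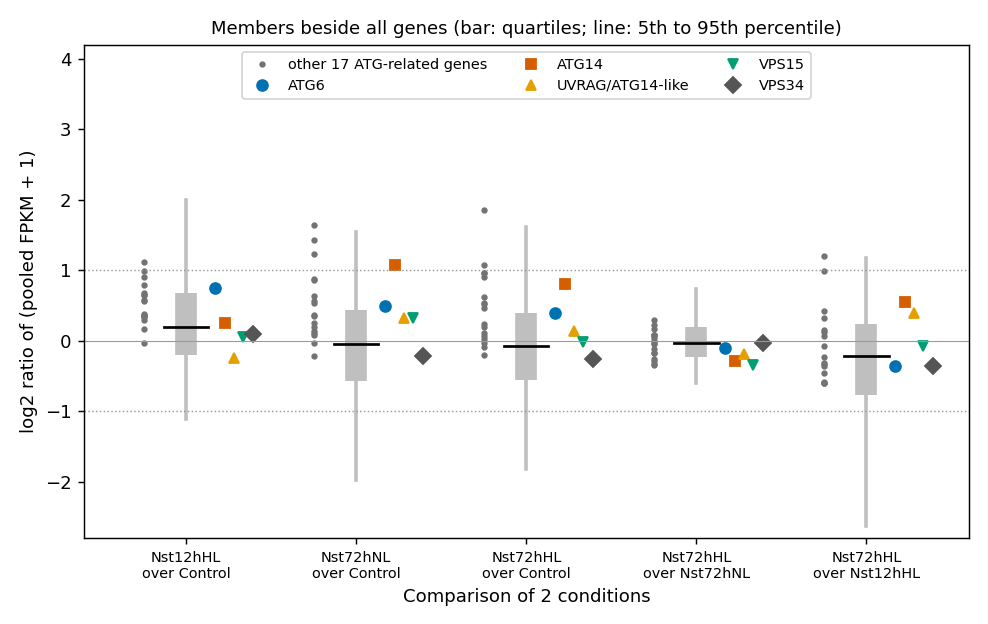
Log2 ratio of pooled FPKM after adding 1 (vertical axis) in 5 comparisons (horizontal axis). Coloured symbols are the 5 genes, small dots the other 17 ATG-related genes, thick bars the quartiles of all genes with their median as a black line, thin lines the range from percentile 5 to 95, and dotted lines the fold of 2. *ATG14* in Nst72hNL, at 1.08, is the only coloured symbol past a dotted line.

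Between both high-light samples, which differ in the time without N, *ATG14* had 19.8 FPKM in Nst72hHL and 13.2 FPKM in Nst12hHL, a ratio of 1.504 (1.45 to 1.56). *UVRAG/ATG14-like* had 8.35 FPKM in Nst72hHL and 6.11 FPKM in Nst12hHL, a ratio of 1.37 (1.30 to 1.44). Both were thus higher at the later time, while *ATG6* and *VPS34* both had a ratio of 0.773, with intervals of 0.742 to 0.805 and 0.747 to 0.800. The median log2 ratio of all genes was -0.21 here. Less that median, *ATG14* was at 0.76, *UVRAG/ATG14-like* at 0.60, *VPS15* at 0.13, *ATG6* at -0.15 and *VPS34* at -0.14. The ratio of *VPS15* was 0.939 (0.897 to 0.983), and it turned to a log2 ratio of 0.14 with median-of-ratios scaling. None of the 5 was past the fold (0 of 5), against 6.57% of all genes upwards and 19.7% downwards.

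All 5 genes had lower FPKM in Nst72hHL than in Nst72hNL, the pair that differs in light alone. Of all genes, 46.5% had a log2 ratio above 0 in this comparison, so a lower value was common. *VPS15* showed the largest difference, with 5.37 FPKM in Nst72hHL and 7.10 FPKM in Nst72hNL, a ratio of 0.756 (0.725 to 0.789), at percentile 15.3 of all genes by log2 ratio. *ATG14* had a ratio of 0.816 (0.790 to 0.843), *UVRAG/ATG14-like* one of 0.869 (0.832 to 0.911) and *ATG6* one of 0.930 (0.893 to 0.970). *VPS34* had a ratio of 0.973 (0.939 to 1.01), and its range includes 1. The median log2 ratio of all genes was -0.03, and the 5 genes were below it. Less that median, their values lay between -0.32 (*VPS15*) and -0.01 (*VPS34*) in log2 units. This side did not change in any of the 8 alternative settings, some of which move a gene and the median largely together. None was past the fold (0 of 5), as were only 2.96% of all genes upwards and 1.25% downwards. With 1 pooled value per light, a difference of this size cannot be set against the spread between cultures.

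A ratio of 2 genes within a condition does not depend on how libraries are scaled against each other, so the balance of subunits was compared in that way. *ATG14* over *VPS34* was 0.585 (0.556 to 0.617) in Control, 0.657 (0.635 to 0.681) in Nst12hHL, 1.52 (1.48 to 1.57) in Nst72hNL and 1.28 (1.23 to 1.33) in Nst72hHL. The ratio in Nst72hNL was 2.61 times that in Control (2.40 to 2.82), and the ratio in Nst72hHL was 2.19 times that in Control (2.00 to 2.39). In Nst12hHL it was 1.12 times that in Control (1.03 to 1.22) by pooled FPKM. *ATG14* was thus less abundant than *VPS34* in Control and at 12 h and more abundant in both 72 h conditions.

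*ATG6* over *VPS34* followed another course, with 0.724 (0.687 to 0.765) in Control, 1.17 (1.13 to 1.21) in Nst12hHL, 1.22 (1.18 to 1.26) in Nst72hNL and 1.17 (1.12 to 1.22) in Nst72hHL. It was already above 1 in Nst12hHL and stood near the same value in all N-deprived conditions, between 1.62 and 1.69 times Control by pooled FPKM. By the deposited mean normalised counts it was 0.681, 1.127, 1.208 and 1.177 in the same order of conditions. The values for Control and Nst12hHL lay below the ranges from pooled FPKM. *UVRAG/ATG14-like* over *VPS34* was 0.398 in Control, 0.304 in Nst12hHL, 0.603 in Nst72hNL and 0.538 in Nst72hHL. *VPS15* over *VPS34*, the ratio of the core pair, was 0.291 in Control, 0.285 in Nst12hHL, 0.445 in Nst72hNL and 0.346 in Nst72hHL, and its 12 h value did not differ from Control beyond the intervals (0.979 times, 0.896 to 1.07).

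**Figure D3:**
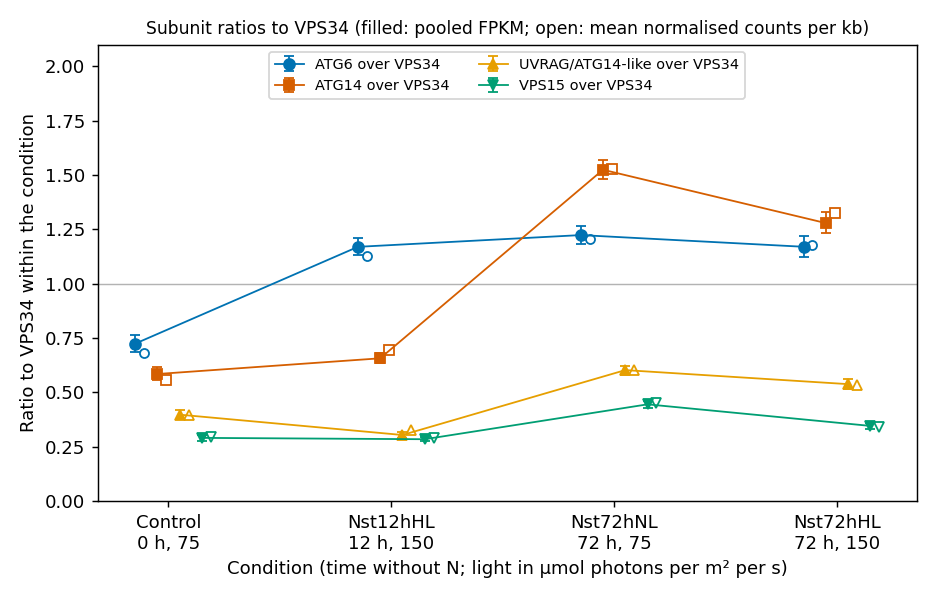
Ratio of each subunit gene to *VPS34* within a condition (vertical axis) in the 4 conditions (horizontal axis). Filled symbols are ratios of pooled FPKM with the range from the bounds of both 95% intervals, and open symbols the same ratio from the deposited mean normalised counts per kilobase; *ATG6* was above 1 in all N-deprived conditions and *ATG14* in both 72 h conditions.

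*ATG14* and *UVRAG/ATG14-like* were also compared with each other. *ATG14* over *UVRAG/ATG14-like* was 1.47 (1.38 to 1.56) in Control, 2.16 (2.06 to 2.26) in Nst12hHL, 2.53 (2.45 to 2.62) in Nst72hNL and 2.38 (2.27 to 2.48) in Nst72hHL. The shift towards *ATG14* was present at 12 h, where *ATG14* was 1.205 times and *UVRAG/ATG14-like* 0.820 times Control in FPKM, and at 72 h, where both genes were above Control and *ATG14* more so. The summed FPKM of both over *ATG6* was 1.36 in Control, 0.822 in Nst12hHL, 1.74 in Nst72hNL and 1.55 in Nst72hHL. *ATG6* was therefore in excess of the sum of both genes at 12 h only.

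The deposited mean normalised counts, which average over libraries, gave subunit ratios within 5% of those from pooled FPKM for 23 of the 28 ratios (7 ratios in 4 conditions), and the largest difference was 10.3%, for the summed ratio to *ATG6* at 12 h. *ATG14* over *VPS34* was 0.558, 0.695, 1.53 and 1.33 by these means in Control, Nst12hHL, Nst72hNL and Nst72hHL. For this ratio the pooled FPKM and these means thus differed by far less than Control and the 72 h conditions did. Its 12 h value by the means lay above the range from pooled FPKM (0.635 to 0.681), so the 12 h difference from Control was larger by the means. The other ratios beyond 5% were *UVRAG/ATG14-like* over *VPS34* (7.53%) and *ATG14* over *ATG6* (9.73%) at 12 h, and *ATG6* over *VPS34* in Control (-5.97%). The deposited effective length equals the transcript length in every row, whereas expected counts divided by FPKM fitted a length shorter by 39.9 to 45.6 bases. Ratios from counts over a length reduced by an insert of 150 bases differed from those of FPKM by at most 2.51%.

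Summed over the 5 genes, the FPKM was 56.1 in Control, 68.6 in Nst12hHL, 76.5 in Nst72hNL and 67.2 in Nst72hHL. *VPS34* made up 33.4% of this sum in Control, 29.3% at 12 h, 20.8% in Nst72hNL and 23.1% in Nst72hHL. *ATG14* had 19.5% and 19.2% in Control and at 12 h, and 31.8% and 29.5% in Nst72hNL and Nst72hHL. *ATG6* took its largest share at 12 h, 34.2%, with 24.2% in Control. *VPS15* kept between 7.99% and 9.71% throughout.

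**Figure D4:**
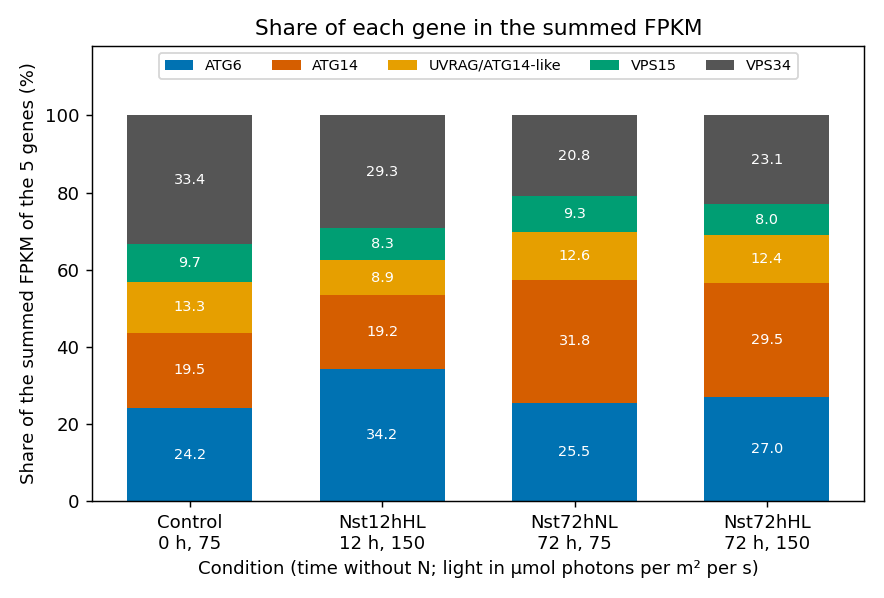
Share of each gene in the summed FPKM of the 5 genes (vertical axis, per cent) in the 4 conditions (horizontal axis). The share of *VPS34* was 33.4% in Control and 20.8% in Nst72hNL, where that of *ATG14* was 31.8%.

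The study lists 17 other putative autophagy-related genes, among them AMRA1 (g9351), which it places with the PI3-kinase complex and whose counterpart in animals, AMBRA1, binds Beclin 1. AMRA1 had 8.40 FPKM in Control, 10.9 in Nst12hHL, 11.04 in Nst72hNL and 8.62 in Nst72hHL, and was past the fold in no comparison. Of the 17 genes, 3 were past the fold upwards in Nst72hNL, namely *ATG1*, the kinase that starts autophagy, *ATG101* of the same kinase complex and *ATG8*, the ubiquitin-like protein of autophagosome membranes, with log2 ratios of 1.23, 1.42 and 1.64, where 9.93% of all genes were past it. In Nst72hHL these were *ATG101* with 1.07 and *ATG8* with 1.86 (10.2% of all genes). *ATG1* fell just short there, with an FPKM ratio of 2.09 and a log2 ratio of 0.97 after adding 1 FPKM. At 12 h the gene past the fold was *ATG4*, the protease that processes ATG8, with 1.12, where 22.7% of all genes were past the fold in either direction. *VMP1* fell just short there, with an FPKM ratio of 2.05 and a log2 ratio of 0.98. In Nst72hHL over Nst12hHL the gene past the fold was *ATG8* with 1.21 (6.57% of all genes), and *ATG18* fell just short with an FPKM ratio of 2.02 and a log2 ratio of 0.997. None of the 17 was past the fold downwards, where the share of all genes was 5.74% in Nst12hHL, 14.1% in Nst72hNL and 13.5% in Nst72hHL, each against Control, 19.7% in Nst72hHL over Nst12hHL and 1.25% in Nst72hHL over Nst72hNL. Their median log2 ratio to Control was 0.57 in Nst12hHL, 0.37 in Nst72hNL and 0.47 in Nst72hHL, where the 5 PI3-kinase genes had 0.10, 0.33 and 0.15 and all genes 0.20, -0.04 and -0.07. At 12 h 15 of the 17 and 2 of the 5 lay above the median of all genes, and in Nst72hNL 16 of the 17 and 4 of the 5 did.

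Likeness of the levels over the 4 conditions was measured as the Euclidean distance of log2(FPKM + 1) centred on each gene's mean, and is a description over 4 values. The nearest of the 21 other listed genes was *ATG7*, the activating enzyme of the conjugation systems, for *ATG6* (distance 0.18), *ATG101* for *ATG14* (0.31), *AMRA1* for *VPS15* (0.22) and *ATG10*, a conjugating enzyme, for *VPS34* (0.14). For *UVRAG/ATG14-like* it was *VPS15* (0.34). The 2 most unlike of the 5 were *ATG14* and *VPS34*, at a distance of 1.12.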

How the data were processed

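Per the labels, libraries were made with an Illumina TruSeq protocol and sequenced on an Illumina instrument as short single-end and longer paired-end reads. RSEM 1.2.9, Bowtie 1.0.0, cutadapt 1.1, CASAVA 1.8 and DESeq are credited in the submitters' processing notes. The study names its own *L. incisa* genome, held at NCBI, and refers to other publications for its sequencing. The build and annotation version behind these tables were not given in the sources used here. Per the file headers and readme, the authors deposited, for each gene and transcript, 1 pooled expected count per condition (unnormalized), with TPM, FPKM and the percent of the gene taken by each transcript. They also deposited mean normalised counts per condition (a signal scaled by DESeq size factors, set anew in each pairwise comparison, of which Nst12hHL with Control and Nst72hHL with Nst72hNL were read), which were used here only for ratios of genes within a condition. The deposited fold changes, log2 changes, p-values and adjusted p-values of the authors' own comparisons, pairwise and over all conditions, were not used.

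FPKM ratios, and log2 ratios after adding a pseudocount of 1 FPKM to genes that reached 1 FPKM in either condition of a comparison, were computed with Python 3.11.15, numpy 2.4.6 and pandas 2.3.3. The code was tested on simulated counts. Such log2 ratios understate changes of low genes. The range of a ratio divides the lower bound of one interval by the upper bound of the other. The genes named are the 5 subunits, the nearest listed gene to each, AMRA1, and the listed genes past the fold or short of it only after adding 1 FPKM. The members and lists were chosen with earlier results of these data known. Alternatives were TPM, counts over their total, median-of-ratios scaling, pseudocounts of 0.1 and 0, no minimum and a minimum of 5 FPKM, the most abundant transcript, and a fold of 1.5.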

Additional observations from a re-analysis of the deposited data

Results flagged for a closer look

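The *UVRAG/ATG14-like* gene lay below Control at 12 h and above it at 72 h, with intervals on opposite sides of 1. Its FPKM was 1.37 times that of Nst12hHL in Nst72hHL and 1.57 times in Nst72hNL, where light differs from the 12 h sample as well. *VPS34* lay above Control at 12 h and below it at 72 h in FPKM. It was at 0.773 times the FPKM of Nst12hHL in Nst72hHL and 0.794 times in Nst72hNL, where light again differs as well. Neither difference was tested, since each condition is 1 pooled value. The 12 h excess of *VPS34* over Control turned into a deficit (log2 ratio -0.09) with median-of-ratios scaling, as did its deficit in Nst72hNL into an excess (0.05) by TPM. Less the median of all genes, *VPS34* was at -0.11 in Nst12hHL and -0.18 in both 72 h conditions, thus below that median in each comparison with Control. The median log2 ratio of all genes was itself 0.20 in Nst12hHL over Control and -0.21 in Nst72hHL over Nst12hHL.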

How the results depend on the processing

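No paired analysis was possible because the tables used here hold 1 pooled value per condition, and leaving out a replicate or another count test was not run for the same reason. Of the 200 log2 ratios of the 5 genes under alternatives, 6 changed sign, all of *VPS15* or *VPS34*, and none was past the fold. The 200 include values that could not change. No minimum, a minimum of 5 FPKM and the most abundant transcript leave the log2 ratios of these genes as they were. Of the 5 genes, 1 was past the fold in Nst72hHL over Control by TPM or at a fold of 1.5, and 1 at 12 h at a fold of 1.5, against 0 in both comparisons as reported. Of the 17 other listed genes, those past the fold at 12 h were 3 by TPM, 0 with median-of-ratios scaling, 2 with a pseudocount of 0.1 or 0 or the most abundant transcript, and 7 at a fold of 1.5, against 1 as reported. Among the 14043 genes compared at 12 h, 3734 were past it by TPM, against 3192 as reported. Median-of-ratios scaling gave 2916 and the most abundant transcript 3184. A pseudocount of 0.1 gave 3660, and one of 0 gave 3710 of 14038 genes. At 72 h the listed genes past the fold were 5 by TPM and 6 at a fold of 1.5 under either light. All genes past it by TPM were 3759 of 13789 (normal light) and 3594 of 13827 (high light). Under high light 3 of the 17 were past it with median-of-ratios scaling or a pseudocount of 0.1 or 0, against 2 as reported. All genes past it were 3236, 3988 and 4079 with these settings, against 3264 as reported. In Nst72hHL over Nst12hHL 2 of the 17 were past it by TPM, median-of-ratios scaling or either lower pseudocount, and 6 at a fold of 1.5. All genes past it were 3891 by TPM and 3579 with median-of-ratios scaling, against 3683 as reported. They were 4222 with a pseudocount of 0.1 and 4290 with 0. At a fold of 1.5 all genes past it were 5610 (12 h), 6003 (72 h, normal light), 5935 (72 h, high light), 1715 (both lights) and 6183 (72 over 12 h), and with no pseudocount 858 for both lights, against 562. The share of genes past the fold that were higher was 57.4% by TPM and 41.3% by FPKM in Nst72hNL over Control, 54.0% by TPM and 43.0% by FPKM in Nst72hHL over Control, and 37.5% by median-of-ratios scaling and 25.0% by FPKM in Nst72hHL over Nst12hHL. *ATG14* over *VPS34* at 12 h was 0.695 by mean normalised counts, an alternative chosen after seeing the data, as were the shorter effective length and the other scalings of the span over conditions. The intervals show what depth allows, and the spread between cultures was not measured from these tables.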
